A study of Homo sapiens with 6 samples.

Results

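The genes described here encode the proteasome, the immunoproteasome and the proteins that assemble and regulate them, in RCC10 cells, a line established from a human kidney cancer of the clear cell type. The members were all rows of the count table whose symbol is PSMA, PSMB, PSMC, PSMD, PSME, PSMF or PSMG followed by a digit. This rule took 50 of 19009 symbols, of which 47 are subunits, regulators or assembly chaperones and 3 (PSMC3IP, PSMD6-AS2 and PSMG3-AS1) are other genes with a similar symbol. PSMA8, the testis-specific alpha subunit, was not analysed here.

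The libraries fall into 3 groups of 2. Parental cells (WT in the labels) carry no engineered change that the labels name. HIF double-knockout cells (DKO) received lentiviral guide RNAs against HIF-1/2alpha and were selected with puromycin. VHL-restored cells received a lentivirus carrying VHL. All 3 groups share the RCC10 background and a medium of DMEM with serum, and RNA was selected for poly(A). The labels name no cells with a non-targeting guide or an empty virus, so virus, selection and the gene change cannot be told apart. The sources used here do not say whether an engineered line is 1 clone or a pool, nor whether the libraries of a group came from separate cultures. The p-values below therefore measure no more than the spread between these libraries, and this may be technical. In bulk RNA a smaller number of cells making a transcript and less of it per cell cannot be told apart.

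The proteasome breaks down proteins that carry ubiquitin. Its 20S core is a barrel of alpha and beta rings with the cutting sites inside, and the 19S particle at its end holds the receptors for ubiquitin and a ring of ATPases that unfold and feed the substrate. PSMB5, PSMB6 and PSMB7 carry the cutting sites of the constitutive core. Interferon-gamma induces PSMB8, PSMB9 and PSMB10, which take the places of PSMB5, PSMB6 and PSMB7 in newly built cores and so form the immunoproteasome, whose products favour peptides that MHC class I can present. The transcription factor NFE2L1 is known to raise the subunit genes together when proteasomes are inhibited. VHL is itself the substrate receptor of a ubiquitin ligase, and the proteasome degrades the HIF alpha subunits that this ligase marks.

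Total counts were 22248126 to 29929116 per library, and 18273 genes, those with a count above 0 anywhere, were tested. The HIF genes were lowest in DKO libraries, and VHL was highest in VHL-restored libraries. HIF1A was also higher in VHL-restored than in parental libraries, a rise that the labels do not name. EPAS1, the gene of HIF-2alpha, stood at 352 and 349 CPM in parental, 44.4 and 48.0 in DKO and 363 and 369 in VHL-restored libraries, where CPM is the count scaled to a common library total after TMM normalization. HIF1A stood at 69.5 and 72.9, 29.6 and 31.6, and 304 and 286 CPM in the same order, and VHL at 38.8 and 39.5, 43.3 and 47.3, and 652 and 723 CPM. Of 10 renal markers, PAX8 was at 297 to 416 CPM in every library, CA9, a typical gene of clear cell carcinoma, and LRP2 of the proximal tubule had at most 1 count in a library, and others moved with the groups. PAX2 was at 1.48 and 1.85 CPM in parental, 15.9 and 14.8 in DKO and 0.858 and 1.36 in VHL-restored libraries, and CDH16 at 31.9 and 28.7, 1.64 and 1.83, and 21.1 and 23.2. NDUFA4L2 was at 60.1 and 57.3 CPM in parental and at most 0.214 in the other libraries, CUBN was lower and KRT18 higher in both lines, and the part of these shifts in the values below was not tested. Of the 2 endothelial markers measured, PECAM1 had 0 counts in all 6 libraries. With VWF they summed to 0.135 to 0.176 CPM in parental, 0.0342 to 0.0777 in DKO and 0.0357 to 0.0358 in VHL-restored libraries. The 3 fibroblast markers summed to 17.3 to 17.4 CPM in parental, 3.69 to 3.76 in DKO and 22.6 to 24.3 in VHL-restored libraries. Leukocytes make the immunoproteasome without stimulation, and their defining genes PTPRC and CD3E had 0 counts in all 6 libraries. The 6 leukocyte markers measured summed to 0.270 to 0.309 CPM in parental, 0.410 to 0.427 in DKO and 0.572 to 0.786 in VHL-restored libraries.

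Promoters are shown first, for a short element that interferon-regulated factors are known to bind. RefSeq promoter windows (GRCh38.p14, 250 bases before to 50 after the start of the gene) were matched for 41 of the 47 subunits, and PSMA7, PSMB1, PSMB6, PSMB7, PSMD4 and PSMG3 had no entry. Both strands were searched for GAAANNGAA, the core of the interferon-stimulated response element. It was in 7 of 41 windows (17.1%), those of PSMA4, PSMB10, PSMB4, PSMC2, PSME1, PSME2 and PSMG4, against 8.29% of all 27305 promoters. PSMB10, PSME2 and PSMG4 carried the same 9 letters, beginning 21, 28 and 33 bases before the start, and PSME1 carried them on the reverse strand, 6 bases past it. These 4, the carriers called higher in both engineered lines, are printed below, a choice made from the values, and PSMA4, PSMB4 and PSMC2 are not shown. Each is a stretch of its window with the matched letters in capitals, read 5′ to 3′ on the strand of the gene. TAP1, which encodes a chain of the peptide transporter that serves MHC class I, is the divergent neighbour of PSMB9: their windows share 13 bases, and the element occurs in a pair of overlapping copies in the TAP1 window. No copy was in the window of PSMB9 or of PSMB8.
PSMB10, chr16:67936851-67937000, minus strand: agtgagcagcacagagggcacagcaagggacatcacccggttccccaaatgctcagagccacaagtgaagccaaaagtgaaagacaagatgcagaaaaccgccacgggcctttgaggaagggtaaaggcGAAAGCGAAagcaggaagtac
PSME2, chr14:24146611-24146760, minus strand: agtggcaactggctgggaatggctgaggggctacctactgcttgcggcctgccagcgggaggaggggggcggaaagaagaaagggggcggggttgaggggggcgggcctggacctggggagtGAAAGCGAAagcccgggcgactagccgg
PSMG4, chr6:3258797-3258946, plus strand: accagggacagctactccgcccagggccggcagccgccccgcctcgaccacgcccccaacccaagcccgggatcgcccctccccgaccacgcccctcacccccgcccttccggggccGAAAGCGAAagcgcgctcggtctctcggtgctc
PSME1, chr14:24136184-24136213, plus strand: cgagcgccctaccgctTTCGCTTTCccttc
TAP1, chr6:32853705-32853854, minus strand: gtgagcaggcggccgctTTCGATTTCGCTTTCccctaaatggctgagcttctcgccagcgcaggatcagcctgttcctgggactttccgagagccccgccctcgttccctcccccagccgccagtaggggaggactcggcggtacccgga

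TGACNNNGC, the core of the antioxidant response element through which NFE2L1 and NFE2L2 are known to act, was in 13 of 41 subunit windows (31.7%) and in 13.6% of all promoters. PSMB9 holds a copy beginning 148 bases before its start, PSMG1, the chaperone gene that differed most between the engineered lines, at 183 bases, and PSMB3 at 104 bases. PSMC4, PSMD1, PSMD12, PSMD3, PSMD5, PSMD9, PSME1, PSME2, PSME4 and PSMG2 also carry it and are not shown, a choice made in part from the values. PSMB9, PSMG1 and PSMB3 are shown with that element in capitals, on the strand of the gene.
PSMB9, chr6:32854042-32854191, plus strand: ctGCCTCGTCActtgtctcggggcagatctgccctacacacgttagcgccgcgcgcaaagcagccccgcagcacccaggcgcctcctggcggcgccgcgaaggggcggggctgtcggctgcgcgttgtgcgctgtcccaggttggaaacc
PSMG1, chr21:39183452-39183641, minus strand: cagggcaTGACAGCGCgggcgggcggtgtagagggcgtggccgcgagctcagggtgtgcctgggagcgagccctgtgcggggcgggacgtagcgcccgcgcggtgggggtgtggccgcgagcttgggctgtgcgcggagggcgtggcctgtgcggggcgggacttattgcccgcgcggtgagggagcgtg
PSMB3, chr17:38752591-38752740, plus strand: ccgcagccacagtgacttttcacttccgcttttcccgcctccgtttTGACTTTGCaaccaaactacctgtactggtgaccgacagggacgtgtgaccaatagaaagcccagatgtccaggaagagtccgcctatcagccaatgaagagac

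CCAAT was in 19 of 41 windows (46.3%) against 35.7% of all promoters, and ACGTG, the core of the hypoxia response element to which HIF binds, in 9 (21.95%) against 21.6%. A match is a description of letters and not of a bound factor, and a window without one says nothing of the factor.

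In DKO cells the proteasome genes were higher as a family. Of the 46 subunits and chaperones with reads in every library, 40 rose, none fell and 6 did not pass the test against parental cells, with a median log2 fold change of 0.43. PSMB11, the thymus-specific beta subunit, had counts in 1 library only and is left out of all counts. A gene is called here at an adjusted p under 0.05 from edgeR's quasi-likelihood test, with Benjamini-Hochberg adjustment over all genes tested. By the same rule 26.6% of all genes tested were higher and 27.5% lower, and among the 9537 genes with a mean of at least 10 CPM, the range in which 45 of the 46 lie, 40.3% were higher and 33.4% lower, with a median log2 fold change of 0.05. In 18 subunits the rise was at least 1.5-fold and in 6 at least 2-fold.

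VHL-restored cells had no such common direction. Against the same parental libraries 17 subunits rose, 15 fell and 14 did not pass, with a median log2 fold change of 0.08. The background was 26.5% higher and 27.7% lower over all genes tested, and 36.9% higher and 36.9% lower among genes with a mean of at least 10 CPM, so that the members' shares were near those of other genes of their level. These counts depended on single libraries: leaving out VHL-restored replicate 1 gave 21 higher and 11 lower, leaving out replicate 2 gave 11 and 19, and leaving out parental replicate 1 or 2 gave 11 higher with 8 or 10 lower. Under all 12 alternatives 10 of the 17 and 8 of the 15 kept their call. VHL-restored replicate 2 was above replicate 1 for 43 of the 46 subunits, with a median ratio of 1.10, whereas over the 9537 genes the median ratio was 0.999. The corresponding numbers were 15 and 24 of 46 in parental and DKO cells.

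Compared directly, DKO cells exceeded VHL-restored cells in 33 subunits, were lower in 4 and did not pass in 9, with a median log2 difference of 0.43. By the same rule 28.0% of all genes tested were higher and 28.0% lower, and at a mean of at least 10 CPM 41.3% were higher and 34.7% lower. The 4 lower genes were PSMB9, PSME1 and the 19S chaperones PSMD5 and PSMD9. The other comparisons share the parental libraries. Here those libraries enter through the scaling and the estimate of the spread. With only the engineered lines in the fit, 31 were higher and 3 lower. The share of all reads in the 46 genes was 0.572% and 0.571% in parental, 0.798% and 0.799% in DKO and 0.553% and 0.600% in VHL-restored libraries.

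**Figure D1:**
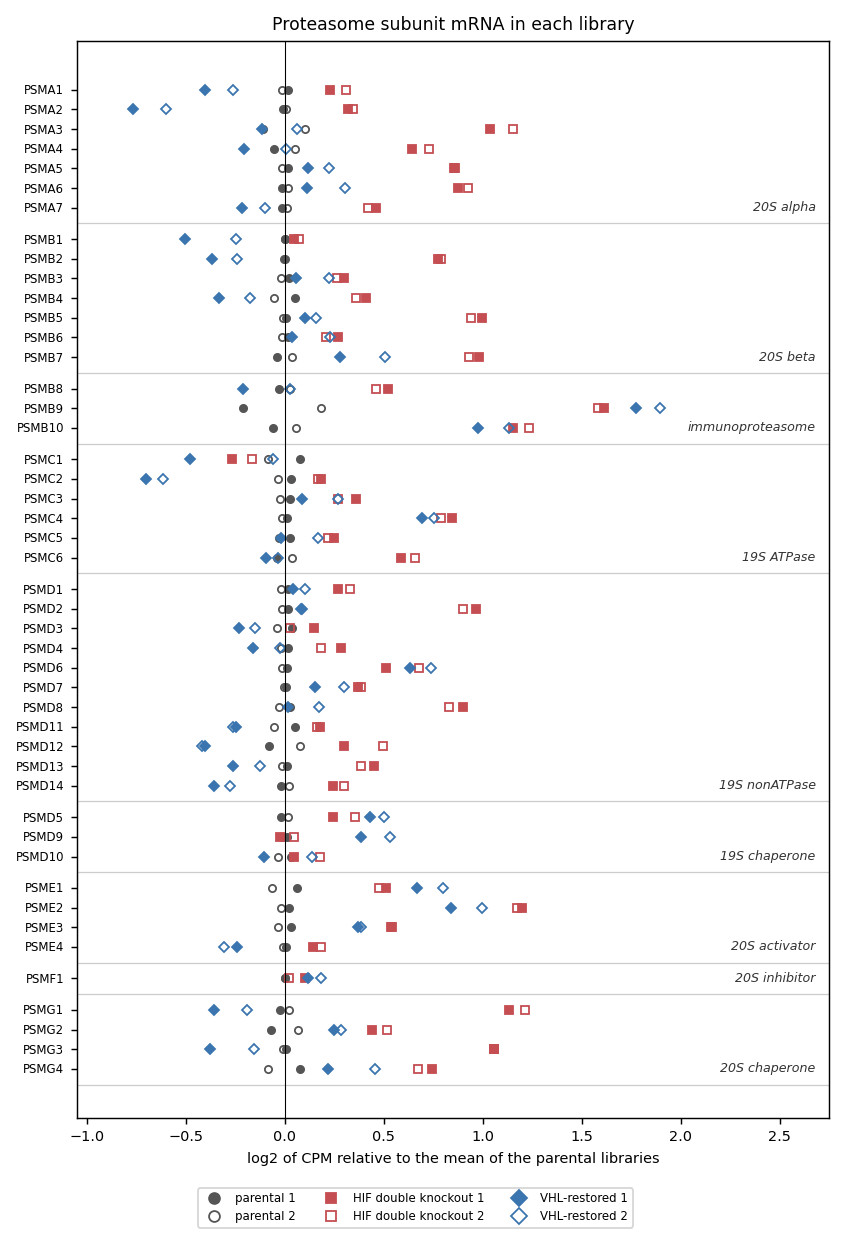
Level of each of the 46 subunits and chaperones in each of the 6 libraries, as log2 of CPM relative to the mean of the parental libraries (horizontal axis), grouped by role. Filled and open symbols are replicates 1 and 2. Of the 46 genes 40 were called higher in DKO than in parental libraries, whereas VHL-restored libraries lie on both sides, with PSMB9 and PSMB10 farthest to the right.

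**Figure D2:**
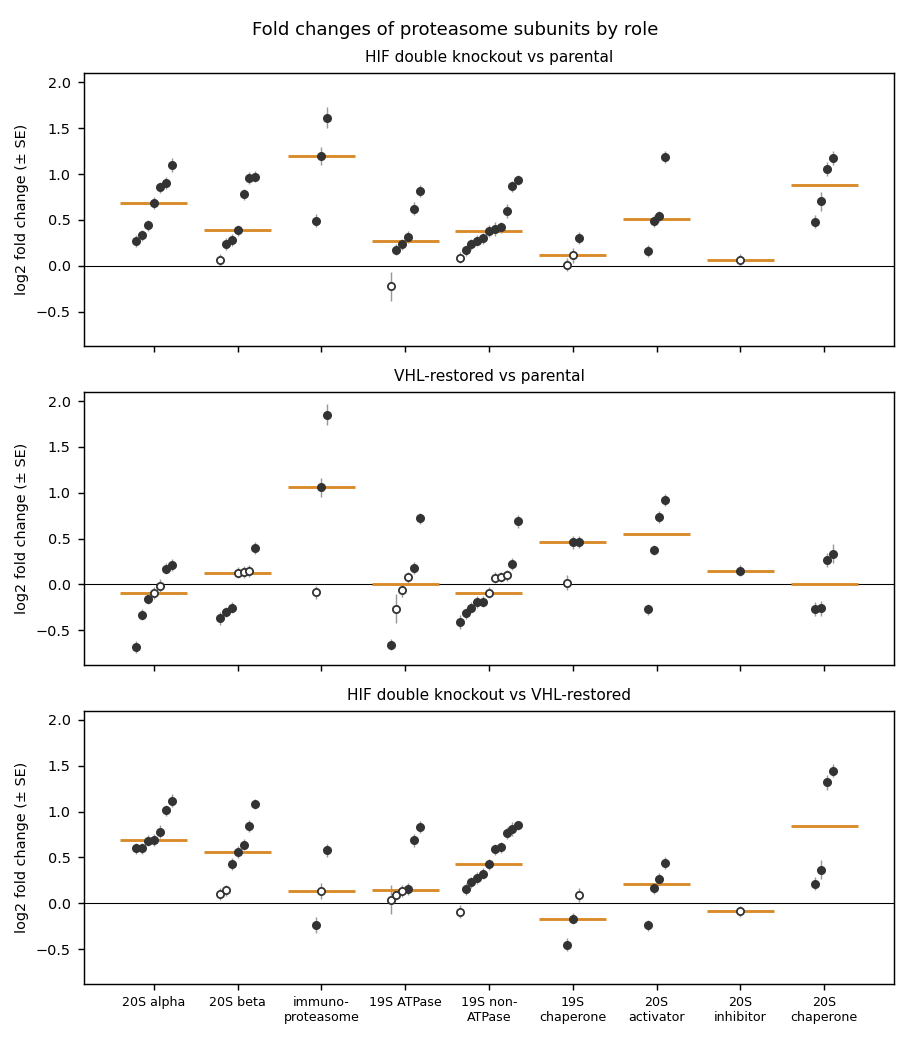
Log2 fold change of each subunit with its SE (vertical axis) by role, for the 3 comparisons. Filled points passed an adjusted p of 0.05 in edgeR, open points did not, and the horizontal bar is the median of the role. In the upper panel every role but the 19S chaperones and the 20S inhibitor has most of its points filled and above 0.

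The alpha ring forms the gate of the 20S core. All 7 alpha genes rose in DKO cells (median log2 fold change 0.69), and all 7 were above the VHL-restored level as well (median 0.69), each by at least 1.5-fold. In VHL-restored against parental cells 2 rose, 3 fell and 2 did not pass. Both rises, of PSMA5 and PSMA6, were lost without parental replicate 1 or 2 or VHL-restored replicate 2 (edgeR adjusted p = 0.080 to 0.19). The fall of PSMA7 was lost without either parental library or VHL-restored replicate 1 (edgeR adjusted p = 0.13 to 0.20), and without VHL-restored replicate 2 a fall of PSMA4 passed (edgeR adjusted p = 0.012).

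PSMA3 had 56.2 and 65.1 CPM in parental, 125 and 135 in DKO and 56.1 and 63.4 in VHL-restored libraries. DKO libraries stood alone, while the ranges of the other groups overlapped. The rise against parental was 2.14-fold (log2 1.10 ± 0.075 SE, edgeR adjusted p = 5.0e-14). For PSMA2 the CPM were 190.5 and 192 in parental, 239 and 243 in DKO and 112 and 127 in VHL-restored libraries. The groups were fully separated in the order VHL-restored, parental, DKO, and PSMA2 was the most lowered alpha gene in VHL-restored cells (log2 fold change -0.68 ± 0.062 SE, edgeR adjusted p = 6.8e-11). It was thus 2.02-fold higher in DKO than in VHL-restored cells (edgeR adjusted p = 5.5e-15). PSMA1 showed the same order with smaller distances, at 206 and 202, 239 and 253, and 155 and 171 CPM. Its log2 rise in DKO cells, 0.27 ± 0.061 SE, was the smallest of the ring (edgeR adjusted p = 3.3e-04).

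The constitutive beta ring holds the cutting sites. Of its 7 genes 6 rose in DKO cells (median log2 fold change 0.39), and PSMB1, a structural subunit, did not pass. In VHL-restored cells PSMB7 rose, PSMB1, PSMB2 and PSMB4 fell and 3 did not pass, and with genes of low count filtered out these 3 rose as well. The fall of PSMB4 was lost without parental replicate 1 (edgeR adjusted p = 0.11). Between the engineered lines 5 were higher in DKO cells and PSMB3 and PSMB6 did not pass. Both passed without VHL-restored replicate 2, at log2 values of 0.22 and 0.20 (edgeR adjusted p = 0.0045 and 0.017). Against parental both passed without VHL-restored replicate 1, at log2 values of 0.22 and 0.23 (edgeR adjusted p = 0.0044 and 0.0059).

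The 3 catalytic genes did not move in equal measure. PSMB5, the chymotrypsin-like site and the target of bortezomib, had 81.3 and 80.3 CPM in parental, 161 and 155 in DKO and 86.8 and 90.1 in VHL-restored libraries. It rose 1.96-fold in DKO cells (log2 0.97 ± 0.062 SE, edgeR adjusted p = 1.4e-14), the largest rise of the ring. Its VHL-restored libraries were slightly above the parental ones without passing the test (log2 0.13, edgeR adjusted p = 0.087). With genes of low count filtered out that difference passed (edgeR adjusted p = 0.045).

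PSMB7, the trypsin-like site, had 127 and 134 CPM in parental, 257 and 248 in DKO and 158 and 185 in VHL-restored libraries. No groups overlapped, with VHL-restored cells in between. It rose 1.94-fold in DKO and 1.32-fold in VHL-restored cells (edgeR adjusted p = 8.3e-14 and 5.7e-06). PSMB6, the caspase-like site, stayed within a narrow range, at 91.8 and 90.0, 109 and 105, and 93.2 and 106 CPM, with the DKO and VHL-restored ranges overlapping. Its rise in DKO cells was 1.18-fold (edgeR adjusted p = 0.0033) and did not pass when any of 3 libraries was left out (log2 0.21 to 0.25, edgeR adjusted p = 0.068 to 0.097).

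Among the structural beta genes PSMB2 separated the groups most. It had 236 and 235 CPM in parental, 402 and 407 in DKO and 183 and 199.7 in VHL-restored libraries. The engineered lines thus stood on either side of the parental one. The log2 fold change was 0.78 in DKO and -0.30 in VHL-restored cells (edgeR adjusted p = 4.3e-13 and 5.2e-05), and the lines differed 2.11-fold. PSMB1 had 193 and 193, 199 and 202, and 136 and 163 CPM. The VHL-restored libraries were below the others, and the DKO libraries lay barely above the parental ones. The log2 fold change was 0.06 in DKO cells (95% interval -0.08 to 0.20) and -0.37 in VHL-restored cells (edgeR adjusted p = 1.9e-05).

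PSMB9 and PSMB10 of the immunoproteasome had the largest rises of all 46 genes in both engineered lines, while PSMB8 rose in DKO cells and differed between the lines. The 3 genes did not move as a unit.

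PSMB9 had 6.30 and 8.29 CPM in parental, 22.3 and 21.9 in DKO and 25.0 and 27.1 in VHL-restored libraries. Parental libraries were the lowest, and no groups overlapped. The rise was 3.06-fold in DKO cells (log2 1.62 ± 0.11 SE, edgeR adjusted p = 4.9e-14) and 3.61-fold in VHL-restored cells (log2 1.85 ± 0.11 SE, edgeR adjusted p = 1.4e-15). DKO cells were below VHL-restored cells by a log2 of -0.24 (edgeR adjusted p = 0.028). That call did not hold in a DESeq2 fit (adjusted p = 0.11) or without DKO replicate 1 or 2 or VHL-restored replicate 2 (edgeR adjusted p = 0.12, 0.15 and 0.17).

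PSMB10 had 8.86 and 9.61 CPM in parental, 20.5 and 21.7 in DKO and 18.2 and 20.3 in VHL-restored libraries. Both engineered lines lay clear of the parental one and close to each other. The rise was 2.29-fold in DKO cells (log2 1.20 ± 0.10 SE, edgeR adjusted p = 7.1e-12) and 2.09-fold in VHL-restored cells (edgeR adjusted p = 1.4e-10). The difference between the lines did not pass, with a 95% interval of -0.05 to 0.32 on the log2 scale.

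PSMB8 had 64.5 and 67.2 CPM in parental, 94.4 and 90.5 in DKO and 56.9 and 67.0 in VHL-restored libraries. Only the DKO libraries stood apart. The rise there was 1.41-fold (log2 0.49 ± 0.073 SE, edgeR adjusted p = 7.8e-07), and DKO cells exceeded VHL-restored cells 1.49-fold (edgeR adjusted p = 3.9e-08). Against parental, VHL-restored cells had a log2 fold change of -0.09 (95% interval -0.24 to 0.07). Without VHL-restored replicate 2 it was -0.21 and passed (edgeR adjusted p = 0.026). On the scale of CPM per kb of exons, PSMB8 was the most abundant of the 3 in parental cells, at 42.5 against 7.92 for PSMB9 and 7.59 for PSMB10. In VHL-restored cells the values were 40.0, 28.3 and 15.8.

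Because each immunoproteasome gene takes the place of a given constitutive one, the ratio of their reads was followed in each library. PSMB9 to PSMB6 was 0.0686 and 0.0922 in parental, 0.204 and 0.208 in DKO and 0.268 and 0.254 in VHL-restored libraries. Their means rose 2.56-fold and 3.25-fold, with the VHL-restored libraries highest. PSMB10 to PSMB7 was 0.0697 and 0.0718, then 0.0797 and 0.0874, then 0.115 and 0.109. In DKO cells the ratio was only 1.18-fold higher, since PSMB7 rose there too, and in VHL-restored cells it was 1.58-fold higher. PSMB8 to PSMB5 went the other way, at 0.793 and 0.837 in parental, 0.585 and 0.583 in DKO and 0.655 and 0.744 in VHL-restored libraries. It was 1.40-fold lower in DKO and 1.16-fold lower in VHL-restored cells. No libraries of different groups overlapped in these ratios. With 2 libraries a group an exact permutation test cannot pass 0.05, so the ratios are given without a test, and their change rather than their level is to be read, as gene length enters the level.

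**Figure D3:**
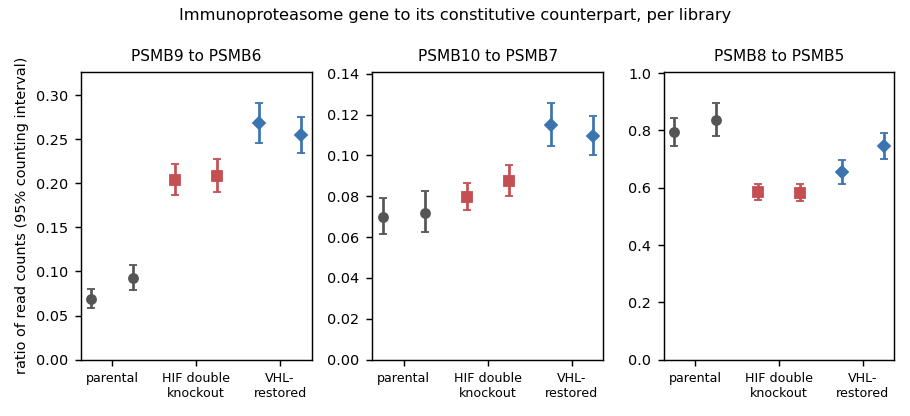
Ratio of the read count of each immunoproteasome gene to that of the constitutive gene it replaces (vertical axis from 0, with the 95% counting interval) in each library. PSMB9 to PSMB6 and PSMB10 to PSMB7 are lowest in parental cells and highest in VHL-restored cells, and PSMB8 to PSMB5 is highest in parental and lowest in DKO cells.

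The 11S activators PSME1 and PSME2 form the interferon-inducible cap PA28alpha/beta, which opens the gate without ubiquitin or ATP. Together with the nuclear PSME3 (PA28gamma) and PSME4 (PA200), all 4 activator genes rose in DKO cells (median log2 fold change 0.52). In VHL-restored cells PSME1, PSME2 and PSME3 rose and PSME4 fell.

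PSME2 had 63.3 and 61.5 CPM in parental, 143 and 141 in DKO and 112 and 125 in VHL-restored libraries. The order was parental, VHL-restored, DKO with no overlap. It rose 2.27-fold in DKO cells (log2 1.19 ± 0.067 SE, edgeR adjusted p = 5.0e-16) and 1.89-fold in VHL-restored cells (edgeR adjusted p = 3.0e-13). PSME1 had 107 and 98.5, 147 and 143, and 163 and 179 CPM. Here VHL-restored cells were the highest, with rises of 1.41-fold and 1.66-fold (edgeR adjusted p = 8.9e-08 and 2.5e-11). The partners differed between the lines in opposite directions, PSME1 by a log2 of -0.24 and PSME2 by 0.26 in DKO against VHL-restored cells (edgeR adjusted p = 0.0015 and 7.0e-04). As shown above, both carry the GAAAGCGAA letters close to the start, and a part of these letters in the rises was not tested.

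PSME3 had 172 and 165 CPM in parental, 245 and 246 in DKO and 218 and 220.3 in VHL-restored libraries. It rose in both lines, by log2 values of 0.54 and 0.38 (edgeR adjusted p = 1.6e-09 and 1.5e-06). The difference between the lines, a log2 of 0.16, did not pass without DKO replicate 1 or 2 (edgeR adjusted p = 0.053 and 0.059). PSME4 had 101 and 100.3, 111 and 114, and 85.5 and 81.5 CPM. It was the activator gene with the smallest changes in DKO cells (log2 0.16, edgeR adjusted p = 0.028, with 0.11 to 0.14 without either parental library or DKO replicate 2), and it fell in VHL-restored cells by a log2 of -0.27 (edgeR adjusted p = 4.8e-04). PSMF1, which encodes PI31 and was first described as an inhibitor of the core, was almost level, at 146 and 146, 157 and 148, and 159 and 166 CPM. In DKO cells its log2 fold change was 0.06 (95% interval -0.06 to 0.19). The small rise in VHL-restored cells (log2 0.15, edgeR adjusted p = 0.033) did not pass without parental replicate 1 or 2 or VHL-restored replicate 2 (edgeR adjusted p = 0.13 to 0.15).

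The ATPase ring at the base of the 19S particle unfolds substrates. Of its 6 genes 5 rose in DKO cells (median log2 fold change 0.27), 2 rose and 1 fell in VHL-restored cells, and 3 were higher in DKO than in VHL-restored cells. The 5 were 3 without parental replicate 1 or 2 or DKO replicate 1, and the 2 were 1 without either parental library or VHL-restored replicate 2, which lost the call of PSMC3. PSMC4 and PSMC2 show how differently members of 1 ring can behave. PSMC4 had 94.1 and 92.4 CPM in parental, 167 and 161 in DKO and 151 and 157 in VHL-restored libraries. It rose in both lines, 1.76-fold and 1.65-fold (edgeR adjusted p = 5.6e-13 and 1.1e-11), and the lines did not differ by the test (95% interval of the log2 difference -0.03 to 0.22). PSMC2 had 135 and 129, 149.8 and 148, and 81.2 and 86.0 CPM. The VHL-restored libraries were well below the others, with a log2 fold change of -0.66 ± 0.063 SE (edgeR adjusted p = 1.6e-10). Its rise in DKO cells, a log2 of 0.18 (edgeR adjusted p = 0.015), did not pass without parental replicate 1 or 2 or DKO replicate 1 (edgeR adjusted p = 0.054 to 0.16). PSMC6 had 52.7 and 55.4, 81.1 and 85.5, and 50.7 and 52.9 CPM, and only DKO cells were raised, 1.54-fold (edgeR adjusted p = 3.2e-09). PSMC5 rose in DKO cells by a log2 of 0.23 (edgeR adjusted p = 0.0022), a call lost when parental replicate 1 or 2 or DKO replicate 1 was left out. It was also among the 3 called higher in DKO than in VHL-restored cells (log2 0.16), a call lost in 7 of 12 alternatives.

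PSMC1 did not pass in any comparison with all libraries in the fit and stood far below its ring, at 4.68 and 4.19, 3.69 and 3.96, and 3.18 and 4.25 CPM. Per kb of exons its parental mean was 0.998 CPM, whereas the other 30 genes of the alpha, beta, ATPase and non-ATPase groups ran from 14.9 (PSMD12) to 266.1 (PSMB4). In the GENCODE 29 annotation 82.1% of its exon bases overlap exons of NRDE2 on the opposite strand, and 29.01% of its 50-base windows occur in other transcripts, chiefly the pseudogene PSMC1P1. How reads in such places were counted is not stated, so the level of PSMC1 is uncertain. Without VHL-restored replicate 2 its log2 fold change in VHL-restored cells was -0.49 and passed (edgeR adjusted p = 0.024).

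The other 11 subunits of the 19S particle form its scaffold, ubiquitin receptors and lid. Of these 10 rose in DKO cells (median log2 fold change 0.38), and 2 rose and 5 fell in VHL-restored cells. Between the lines 10 were higher in DKO cells, among them PSMD7 (log2 0.15), a call lost in 8 of 12 alternatives. In VHL-restored cells 1 rose and 2 fell without parental replicate 1, 1 and 3 without parental replicate 2, and 1 and 6 without VHL-restored replicate 2. PSMD2, the large scaffold that docks ubiquitin receptors, had the highest CPM of all members. It had 586 and 574 CPM in parental, 1134 and 1081 in DKO and 614 and 616 in VHL-restored libraries. DKO libraries stood alone, 1.91-fold above parental (log2 0.93 ± 0.053 SE, edgeR adjusted p = 5.8e-16) and 1.80-fold above VHL-restored ones. The VHL-restored difference from parental did not pass (log2 0.08, edgeR adjusted p = 0.19). PSMD8, a lid subunit, rose by a similar log2 of 0.87 in DKO cells (edgeR adjusted p = 1.5e-13).

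PSMD6, another lid subunit, was unlike them, with 44.8 and 44.0, 63.2 and 71.0, and 68.9 and 74.2 CPM. Both lines were above parental and overlapped each other, with rises of 1.51-fold and 1.61-fold (edgeR adjusted p = 3.4e-08 and 1.9e-09). PSMD3 had 202 and 191, 218 and 200.3, and 168 and 177 CPM, and was the only one of the 11 that did not pass in DKO cells (95% interval of log2 -0.04 to 0.21). PSMD1, the scaffold beside PSMD2, had 207 and 202, 247 and 257, and 211 and 219 CPM. It rose by a log2 of 0.30 in DKO cells (edgeR adjusted p = 4.4e-05) and was the least changed of the 11 in VHL-restored cells (log2 0.07, not passed). PSMD14, the lid enzyme that removes ubiquitin chains, rose by a log2 of 0.27 and fell by 0.32 in the respective lines (edgeR adjusted p = 3.0e-04 and 5.6e-05). The smaller rises of PSMD4, a ubiquitin receptor, and PSMD11 in DKO cells (log2 0.23 and 0.17) each lost their call in 3 fits that left out 1 library.

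Assembly of the 20S core is guided by the chaperone pairs PSMG1 with PSMG2 and PSMG3 with PSMG4. All 4 genes rose in DKO cells (median log2 fold change 0.88), and all 4 were higher there than in VHL-restored cells (median 0.84).

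PSMG1 had 42.8 and 44.1 CPM in parental, 95.4 and 101 in DKO and 34.0 and 38.1 in VHL-restored libraries. DKO cells were highest and VHL-restored cells lowest, with no overlap. The rise was 2.26-fold (log2 1.18 ± 0.072 SE, edgeR adjusted p = 4.6e-15), and the 2.72-fold difference between the lines was the largest of all 46 members (edgeR adjusted p = 4.2e-17). PSMG3 followed the same order at 26.7 and 26.4, 55.2 and 55.3, and 20.4 and 23.9 CPM. It rose 2.08-fold in DKO cells, and the lines differed 2.49-fold (edgeR adjusted p = 5.6e-13 and 4.3e-15). The falls of both genes in VHL-restored cells, log2 values of -0.27 and -0.26, did not pass without VHL-restored replicate 1 or without either parental library (edgeR adjusted p = 0.052 to 0.22).

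Their partners rose in both lines, less than PSMG1 and PSMG3 in DKO cells. PSMG2 had 37.2 and 40.9, 53.0 and 55.8, and 46.4 and 47.5 CPM, with log2 rises of 0.48 and 0.27 (edgeR adjusted p = 1.7e-06 and 0.0030). PSMG4 had 11.1 and 9.88, 17.5 and 16.7, and 12.2 and 14.4 CPM, with log2 rises of 0.70 and 0.34 (edgeR adjusted p = 7.5e-07 and 0.0083). The VHL-restored rise of PSMG2 did not pass without parental replicate 1 (edgeR adjusted p = 0.095), nor that of PSMG4 without parental replicate 2 or VHL-restored replicate 2 (edgeR adjusted p = 0.14 and 0.17). PSMG2 and PSMG4 were also called higher in DKO than in VHL-restored cells, by log2 values of 0.21 and 0.37. The first call did not pass without DKO replicate 2 or VHL-restored replicate 1, and the second without VHL-restored replicate 1 (edgeR adjusted p = 0.056 to 0.10).

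The 3 chaperones of the 19S base, PSMD5, PSMD9 and PSMD10, behaved differently from those of the core. PSMD9 had 65.8 and 64.8 CPM in parental, 64.2 and 67.4 in DKO and 85.4 and 94.4 in VHL-restored libraries. Only VHL-restored libraries were raised, 1.38-fold (edgeR adjusted p = 9.7e-07), and DKO cells had a log2 fold change of 0.01 (95% interval -0.13 to 0.15). PSMD5 had 73.9 and 75.9, 88.7 and 95.7, and 101 and 106 CPM. It rose in both lines, by log2 values of 0.30 and 0.47 (edgeR adjusted p = 2.6e-04 and 3.6e-07). Its lower call in DKO against VHL-restored cells (log2 -0.17, edgeR adjusted p = 0.030) was lost in 5 of 12 alternatives. PSMD10, also known as gankyrin, had 42.3 and 40.5, 42.8 and 46.8, and 38.5 and 45.6 CPM, and passed in no comparison with all libraries in the fit. Without VHL-restored replicate 2 it was higher in DKO than in VHL-restored cells by a log2 of 0.22 (edgeR adjusted p = 0.037). Of PSMD9, 35.8% of the 50-base windows occur in transcripts of other annotated genes, so its level rests on how shared reads were counted.

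Per kb of exons, the constitutive beta genes had the highest median of any role in parental cells, 133.2 CPM per kb, above the alpha ring at 67.9, the 19S non-ATPase group at 66.6 and the ATPases at 50.8. The core assembly chaperones stood at a median of 16.7. The order of the first 3 medians was the same in DKO cells, at 179.1, 126.7 and 82.0. In VHL-restored cells the beta and alpha genes came first, at 160.7 and 72.4. There the 20S activators, at 64.1, stood above the 19S non-ATPase group, at 61.7. Levels within a ring differed even though its subunits are built in equal numbers: across the 7 beta genes the highest was 5.47 times the lowest in parental cells (PSMB4 against PSMB2), 4.16 times in DKO and 5.66 times in VHL-restored cells. Exon length was the union over all annotated transcripts, so a gene with long, little-used exons is placed too low. Of the 46 genes, 26 shared no 50-base window with another gene, 10 shared up to 10% and 10 more than that. Among the last were PSMA6 (85.6%), PSMA2 (51.0%), PSMA1 (44.5%), PSMB10 (38.9%) and PSMB9 (12.1%). Much of this lies in genes annotated over them on the same strand, such as AL121594.1, AC010132.3, AC018523.2, AC040162.1 and, for PSMB9, PSMB8-AS1. The levels of these genes are uncertain for that reason.

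**Figure D4:**
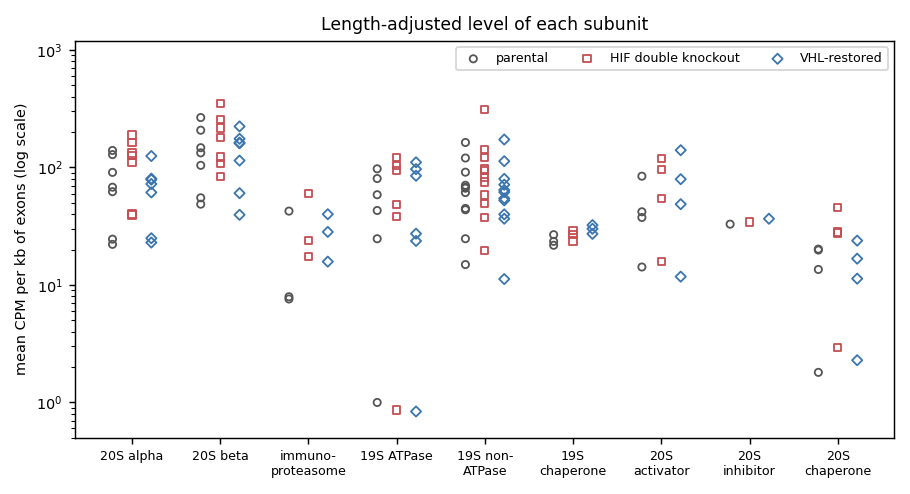
Mean CPM per kb of exons of each member in each group (vertical axis, log scale), by role. Constitutive beta genes lie highest as a group, from 48.7 to 266.1 in parental cells, and the isolated point near 1 in the ATPase group is PSMC1.

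The promoter elements did not sort the members by direction in DKO cells. Of the 40 members with a promoter entry other than PSMB11, 11 of the 13 with the TGACNNNGC element rose there, as did 24 of the 27 without it. All 7 with GAAANNGAA rose, as did 28 of the 33 without it. In VHL-restored cells 4 of those 7 rose (PSMB10, PSME1, PSME2 and PSMG4) and 2 fell (PSMB4 and PSMC2), against 12 that rose and 10 that fell of the 33 without. The 4 genes that were lower in DKO than in VHL-restored cells, PSMB9, PSME1, PSMD5 and PSMD9, all carry TGACNNNGC, a point noticed after the values were seen. A further 7 with that element were higher. PSMB9, PSMD5 and PSMD9 also carry ACGTG, so a split by it reuses genes picked above for their values and is no test of the element. Of the 9 with ACGTG 3 were higher and 3 lower in DKO than in VHL-restored cells, against 25 and 1 of the 31 without it. For CCAAT the numbers were 13 and 1 of 18, against 15 and 3 of 22. The lower calls of PSMB9 and PSMD5 were lost in 4 and 5 of the 12 alternatives.

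Genes that work with the proteasome but lie outside the symbol rule are given beside the background of genes with a mean of at least 10 CPM, of which 40.3% rose and 33.4% fell in DKO cells and 36.9% rose and 36.9% fell in VHL-restored cells. Between the lines 41.3% of these genes were higher and 34.7% lower in DKO than in VHL-restored cells. Of 11 companions 5 rose and 4 fell in DKO cells, 2 rose and 6 fell in VHL-restored cells, and 6 were higher and 2 lower in DKO than in VHL-restored cells. In DKO cells these shares were near the background. Fewer companions rose in VHL-restored cells when parental replicate 1 or 2 or VHL-restored replicate 2 was left out. Fewer also fell there without parental replicate 2. POMP, the maturation factor that guides the beta ring and is consumed in the first round of cutting, resembled PSMG1. It had 48.7 and 52.7 CPM in parental, 85.5 and 95.05 in DKO and 30.7 and 34.1 in VHL-restored libraries. No groups overlapped, and the log2 fold changes were 0.83 and -0.64 (edgeR adjusted p = 3.2e-11 and 2.9e-08), with a 2.78-fold difference between the lines. ADRM1, a ubiquitin receptor of the 19S particle, had 91.2 and 87.3, 159.7 and 149, and 99.98 and 105 CPM, and rose 1.73-fold in DKO cells (edgeR adjusted p = 3.2e-12). UBE3C, a ligase that extends ubiquitin chains on stalled substrates, fell most of the companions in VHL-restored cells (log2 -0.78, edgeR adjusted p = 8.0e-13).

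Of the 6 regulators listed for the constitutive genes, 1 rose and 3 fell in DKO cells, where 40.3% of genes with a mean of at least 10 CPM rose and 33.4% fell, beside 2 and 1 in VHL-restored cells, where 36.9% rose and 36.9% fell. Between the lines none was higher and 4 were lower, against a background of 41.3% and 34.7%. Leaving out a library moved these counts by at most 1. NFE2L1 had 460.0 and 438 CPM in parental, 322 and 312 in DKO and 333 and 324 in VHL-restored libraries. Both lines were below parental, by log2 values of -0.50 and -0.45 (edgeR adjusted p = 3.1e-09 and 3.0e-08). The difference between the lines did not pass (log2 -0.05, edgeR adjusted p = 0.46). NFE2L2, the oxidative stress factor NRF2, had 136 and 139.8, 115 and 125, and 134 and 134 CPM, and was lower in DKO cells by a log2 of -0.20 (edgeR adjusted p = 0.0068). That call was lost without parental replicate 1 or 2 or DKO replicate 1 (edgeR adjusted p = 0.057 to 0.10). FOXO4 showed the largest change of the list in DKO cells (log2 -0.98, edgeR adjusted p = 2.3e-05) at a low level of 1.75 to 3.57 CPM, and STAT3 the largest in VHL-restored cells (log2 0.45, edgeR adjusted p = 1.5e-07). NFE2L1 is controlled chiefly by its own degradation and processing, which messenger RNA does not show.

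Interferon-side genes were measured beside the immunoproteasome. Of 17 counted here, 9 rose and 3 fell in DKO cells, 8 rose and 6 fell in VHL-restored cells, and 9 were higher and 5 lower in DKO than in VHL-restored cells. The background at a mean of at least 10 CPM was 40.3% higher and 33.4% lower in DKO and 36.9% and 36.9% in VHL-restored cells, so that the shares in VHL-restored cells were near it. For DKO against VHL-restored cells it was 41.3% higher and 34.7% lower. Without parental replicate 2 only 5 rose in DKO cells, and without parental replicate 1 only 3 fell in VHL-restored cells. IRF8 was not analysed here, and CIITA had at most 1 count in a library. IRF1, an interferon-induced factor that acts on PSMB9 and TAP1, had 16.2 and 14.7 CPM in parental, 49.5 and 45.1 in DKO and 36.1 and 38.8 in VHL-restored libraries. No groups overlapped, and parental libraries were the lowest. It rose in both lines, 3.05-fold and 2.42-fold (edgeR adjusted p = 1.2e-16 and 7.1e-14). PSMB9 and PSMB10 were also above parental in both lines. IRF1 was highest in DKO and PSMB9 in VHL-restored libraries. The PSMB9 difference between the lines lost its call in 4 of 12 alternatives. PSMB8 was called higher in DKO cells only. A link of IRF1 to these genes was not tested.

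TAP1, the neighbour of PSMB9, had 39.8 and 38.9 CPM in parental, 83.8 and 75.1 in DKO and 56.9 and 62.4 in VHL-restored libraries. It rose in both lines, 2.02-fold and 1.51-fold, and was 1.33-fold higher in DKO than in VHL-restored cells (edgeR adjusted p = 9.7e-06). PSMB9 had the opposite order, by a small difference (log2 -0.24) whose call was lost in 4 of 12 alternatives. TAP2, its partner, rose 3.04-fold and 1.87-fold (edgeR adjusted p = 5.0e-18 and 1.3e-11). ERAP2, which trims peptides for MHC class I, differed most between the lines among the list, at a log2 of 1.35 (edgeR adjusted p = 5.1e-13). SOCS1, a feedback inhibitor of this pathway, rose 4.01-fold in VHL-restored cells, from 0.438 and 0.397 to 1.72 and 1.68 CPM (edgeR adjusted p = 1.9e-06). IFNGR2, a chain of the interferon-gamma receptor, fell there by a log2 of -1.38 (edgeR adjusted p = 2.1e-16). SOCS1 was also called higher and IFNGR2 lower in DKO than in parental cells, and each call was lost in some alternatives. For SOCS1 the DESeq2 fit gave a log2 of 1.03 there (adjusted p = 0.10).

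**Figure D5:**
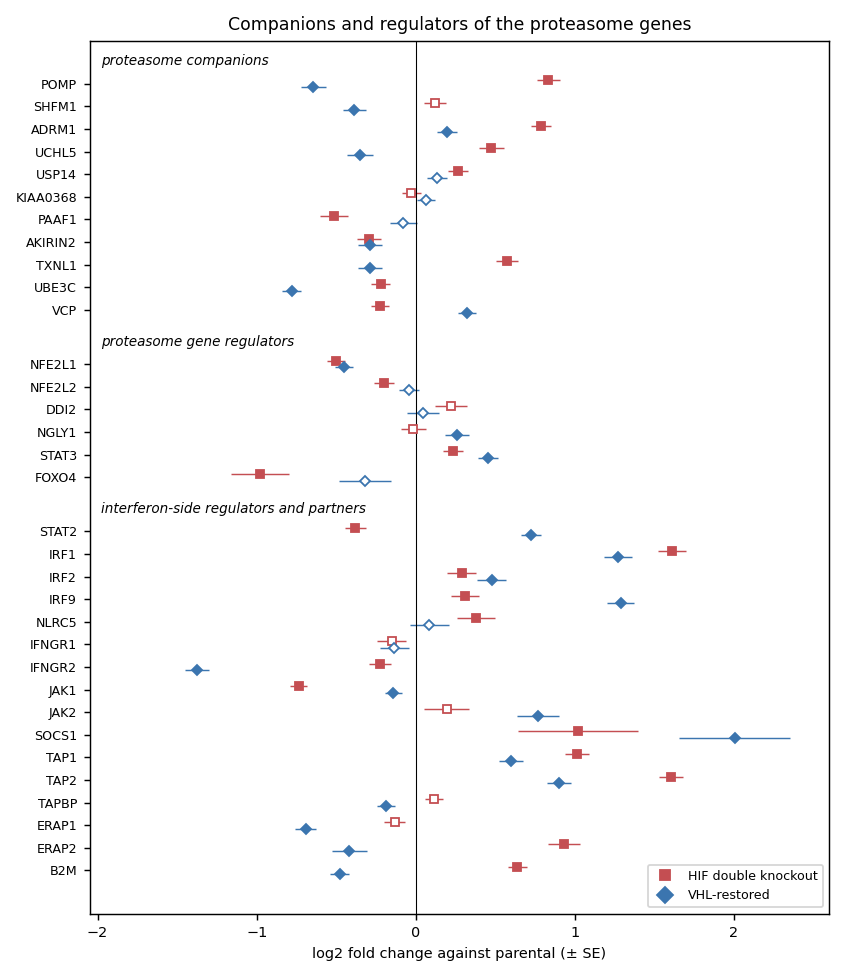
Log2 fold change against parental cells with its SE (horizontal axis) for companions, regulators and interferon-side genes in DKO (squares) and VHL-restored cells (diamonds). Filled symbols passed an adjusted p of 0.05 in edgeR. NFE2L1 lies left of 0 in both lines, and IRF1, TAP1 and TAP2 lie right of 0 in both.

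Last, of 11 genes that supply or shuttle ubiquitin, 7 rose and 1 fell in DKO cells, 5 rose and 3 fell in VHL-restored cells, and 7 were higher and none lower in DKO than in VHL-restored cells. The background at a mean of at least 10 CPM was 40.3% higher and 33.4% lower in DKO cells, and 36.9% and 36.9% in VHL-restored cells, near the shares found there. For DKO against VHL-restored cells it was 41.3% higher and 34.7% lower. Without parental replicate 2 only 2 rose in VHL-restored cells, without parental replicate 1 only 1 fell there, and without VHL-restored replicate 1, 2 were lower in DKO than in VHL-restored cells. UBA1, the main ubiquitin-activating enzyme, had 531 and 514, 786 and 729.8, and 607 and 605 CPM, and rose by log2 values of 0.54 and 0.21 (edgeR adjusted p = 5.5e-10 and 0.0012), the second not without parental replicate 2 (edgeR adjusted p = 0.060). UBA6, the alternative activating enzyme, had 134 and 145, 114 and 132, and 43.6 and 39.5 CPM. It was the 1 gene that fell in DKO cells, a call lost without parental replicate 1 or 2 or DKO replicate 1. It fell in VHL-restored cells by a log2 of -1.75 (edgeR adjusted p = 6.4e-19), further than any proteasome gene in either direction apart from PSMB9.

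The 3 other symbols taken by the rule are not proteasome parts. PSMC3IP, a recombination factor, rose in both lines by log2 values of 0.56 and 0.26 (edgeR adjusted p = 3.9e-06 and 0.021). PSMG3-AS1 had 18.3 and 15.3 CPM in parental, 11.7 and 10.1 in DKO and 5.51 and 5.54 in VHL-restored libraries, and fell in both lines (log2 -0.63 and -1.61, edgeR adjusted p = 6.0e-06 and 3.3e-13). PSMD6-AS2, at 1.29 to 2.34 CPM, was lower in both lines by log2 values of -0.56 and -0.55 (edgeR adjusted p = 0.032 and 0.035). Both calls of PSMD6-AS2 were lost in a DESeq2 fit (adjusted p = 0.21 and 0.22) and without either parental library (edgeR adjusted p = 0.062 to 0.20). The VHL-restored call of PSMC3IP was lost in a DESeq2 fit (adjusted p = 0.071) and without parental replicate 2 (edgeR adjusted p = 0.26) or VHL-restored replicate 2 (edgeR adjusted p = 0.053). Whether counting used the strand is not stated. PSMG3-AS1 shares 60 exon bases with PSMG3 on the opposite strand, so a small part of their reads could be exchanged.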

How the data were processed

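Poly(A)-selected RNA of RCC10 cells was measured in 6 libraries, 2 a group. The authors deposited a table of counts, whole-number reads for 19009 gene symbols. Its name calls them normalized. Since every value is whole and each library has its own total, they entered the fit as raw counts. The tools, per the submitters' processing notes, were HISAT2 2.2.1 after Trimmomatic 0.39 and FastQC 0.74, then featureCounts 2.0.8, besides limma 3.58.1. The notes name hg38 and hg19, so the only coordinates printed are those of the RefSeq promoter windows, in their own build. The handling of strand and of multi-mapping reads is not stated in these sources.

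The 18273 genes with a count of 1 or more were fitted with edgeR 4.0.16 in R 4.3.3: TMM scaling, 1 model of 3 group means over all 6 libraries, glmQLFit and glmQLFTest, Benjamini-Hochberg adjustment over all genes tested, threshold 0.05. Each library's precision limit, 3 counts, is 0.101 to 0.132 CPM. Intervals on ratios cover counting error only. Over the 46 subunits the chi-square of replicate counts, divided by its degrees of freedom, was 2.83 to 5.12, so replicates varied more than counting error and none is a copy of another. Exon lengths, overlaps and 50-base windows came from GENCODE 29. The genes of the other lists and the 3 other symbols were put through the same alternatives, a choice made after seeing the data, as was leaving out each library from the count ratios. The steps were tested on simulated data.

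The members and the gene lists were chosen with earlier results of these data known. Given in every library were PSMB5 to PSMB10, PSME1 to PSME4, PSMF1, PSMG1 to PSMG4 and, in each other role, the genes with the largest and the smallest fold change in each comparison. From the other lists IRF1, TAP1, NFE2L1, NFE2L2, POMP, ADRM1 and the largest change in each comparison were named, CIITA being passed over because of its counts. Other genes named (PSMA and PSMD genes with single values, TAP2, IFNGR2 and PSMC5) were chosen after their values were seen. One gene of the interferon-side list is not reported here. SEM1 and ECPAS were found under their older symbols SHFM1 and KIAA0368. Alternatives were DESeq2 1.42.0 with its size factors and its own test, median centring, a filter on low counts, a fit of only the groups compared, a replicate block and leaving out each library.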

Additional observations from a re-analysis of the deposited data

How the results depend on the processing

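The fold changes and calls of the members were recomputed under 12 alternatives. The count ratios were recomputed only with a library left out, and the levels per kb and the promoter matches under no alternative. In double-knockout against parental cells 40 subunits rose and none fell under each alternative that kept both groups whole, and 34 to 40 rose when a library was left out. In VHL-restored against parental cells, leaving out a library gave 11 to 21 higher and 8 to 19 lower. In double-knockout against VHL-restored cells it gave 29 to 37 higher and 2 to 4 lower. Of the settings compared, leaving out a library moved these counts most. Over the 46 members, comparisons and alternatives 1557 fold changes kept their side of the threshold, 81 lost and 18 gained a call, and no called one of the 46 turned its sign. No scaling moved the median of expressed genes by over 0.02.

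Equal replicate numbers share no stated culture or day. Deviations from the group means of equally numbered libraries correlated at 0.24, 0.06 and -0.06 over 9537 genes. With the replicate number as a block the counts were 40 higher and 0 lower, 18 and 15, and 35 and 4 in the 3 comparisons, so the replicate block moved none by over 1.5 times. A fit without 1 library leaves an arm with 1 sample, assumed to vary like the other groups. With 2 libraries a group, small differences may be missed, and PSMB11 and CIITA are too shallow for a statement.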
